A study of Mus musculus with 2 samples.

Results

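To look at the fibroblasts of RM-1 tumors grown in the mouse prostate, 169 of 16388 cells kept were chosen by a rule on 3 matrix genes, and 56 of them fell in 2 clusters (2 and 5 below) with high levels of cancer cell genes, so the 169 are called the chosen cells. A cell counted when it held at least 3000 unique molecular identifiers (UMIs, each standing for 1 captured RNA molecule), at most 20% of them mitochondrial, at least 10 UMIs of Dcn, Lum and Dpt summed, at most 1 UMI of the pan-leukocyte gene Ptprc and at most 2 UMIs of the macrophage genes C1qa, C1qb and C1qc summed. Because the cells were chosen by measured values, all levels below are a description of the chosen cells, and no level of Dcn, Lum or Dpt is a result. The control tumor gave 78 of these cells and the enzalutamide tumor 91.

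The study collected wild-type (WT) RM-1 tumors, which arise from a mouse prostate cancer cell line injected into the prostates of C57BL/6 mice, from a pair of animals. The control mouse received vehicle, and the other (ENZ) received enzalutamide, an antiandrogen drug used against prostate cancer. Each condition was 1 single-cell RNA library of 1 mouse, so ratios between conditions compare 2 libraries and carry no test. Immune cells were enriched during sorting, so the share of any other cell type also depends on the sort. The ages of the mice are not given in the sources used here, and the labels name the cells prostate cancer cells only. The control matrix held 170830346 UMIs and the ENZ matrix 162030149. Of the cells kept, 18 carried a barcode found in both libraries, and 0 barcodes belonged to chosen cells in both libraries.

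Fibroblasts are the connective tissue cells that secrete collagens, proteoglycans and elastic fibres and that fold, trim and crosslink them outside the cell. In tumors they also release chemokines, complement proteins and growth factors, and some take on contractile genes like those of smooth muscle. In the prostate, stromal fibroblasts and smooth muscle exchange signals with the epithelium.

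The promoters of 3 genes that carry the results below are shown first, because 1 stood far above cancer cells in both libraries (Col1a2) and the others are among the genes with the widest gap between the libraries (Sfrp2 lower, Saa3 higher with ENZ). Each runs 5′ to 3′ on the gene's strand from 250 bases before to 50 bases after the annotated start (RefSeq, GRCm38.p6), and capitals mark matches to CCAAT or TATANA on either strand (ATTGG and TNTATA on the other). Col1a2, a chain of type I collagen, lies on the plus strand at chr6:4505368-4505667. Sfrp2, a secreted Wnt modulator, lies on the plus strand at chr3:83766071-83766370. Saa3, an acute-phase serum amyloid protein, lies on the minus strand at chr7:46715627-46715926.
Col1a2: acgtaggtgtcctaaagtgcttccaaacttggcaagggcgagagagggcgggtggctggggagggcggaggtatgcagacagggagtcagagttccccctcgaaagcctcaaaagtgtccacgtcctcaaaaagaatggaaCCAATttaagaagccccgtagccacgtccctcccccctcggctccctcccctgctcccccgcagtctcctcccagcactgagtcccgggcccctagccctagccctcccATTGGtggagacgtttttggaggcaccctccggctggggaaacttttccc
Sfrp2: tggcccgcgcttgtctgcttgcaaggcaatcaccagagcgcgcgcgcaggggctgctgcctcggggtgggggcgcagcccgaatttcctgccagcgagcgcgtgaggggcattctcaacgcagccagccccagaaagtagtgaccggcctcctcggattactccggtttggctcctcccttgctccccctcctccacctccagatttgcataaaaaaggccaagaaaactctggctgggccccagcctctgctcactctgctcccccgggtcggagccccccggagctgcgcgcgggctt
Saa3: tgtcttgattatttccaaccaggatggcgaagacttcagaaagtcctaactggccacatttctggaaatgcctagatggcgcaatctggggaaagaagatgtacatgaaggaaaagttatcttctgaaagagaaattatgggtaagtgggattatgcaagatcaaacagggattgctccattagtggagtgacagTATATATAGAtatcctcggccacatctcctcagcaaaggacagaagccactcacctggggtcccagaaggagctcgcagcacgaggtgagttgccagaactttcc
The Col1a2 window held 2 CCAAT matches, the Sfrp2 window held none of either motif, and the Saa3 window held 5 overlapping TATANA matches in 1 short run. Over all 32851 RefSeq promoters of this length, 37.4% held CCAAT, 24.7% held TATANA and 52.5% held either. Of the 15 genes that stood highest over cancer cells, 10 had an entry in that table. Dcn lies at chr10:97479609-97518143 on GRCm38, and Lum begins 47.0 kb after it on the same strand. Dpt lies at chr1:164796644-164824266.

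Grouping of the 169 cells by their expression gave 5 clusters, described here first by genes that the rule did not use. Clusters 1, 3 and 4 (54, 30 and 29 cells, 113 in all) had a median of 115.5, 178 and 329 UMIs of the type I collagen gene Col1a1 per cell and of 0, 1 and 0 UMIs of Rhox5, a homeobox gene carried by the RM-1 cancer cells. Cluster 2 (38 cells) had medians of 12.5 Col1a1 and 18.5 Rhox5 UMIs and 12.5 UMIs of the epithelial keratins Krt8 and Krt18 together. In the rule genes, 37 of 38 cells of cluster 2 had under 10 UMIs of Dcn and Lum together and passed the rule only with Dpt added: 20 had no Dcn or Lum UMI, 17 had 1 to 9, and 27 had at least 10 Dpt UMIs. The remaining cell of cluster 2 came from the ENZ library and had 33 Dcn UMIs, 0 Col1a1 UMIs and 13 UMIs of the vessel genes Pecam1, Cdh5, Rgs5 and Notch3. Cluster 5 (18 cells) was led by cell cycle genes and as a whole carried both kinds of marker, with medians of 61 Col1a1 and 35 Rhox5 UMIs. It was mixed, with 10 cells at 10 or more UMIs of Dcn and Lum together and 8 cells under 10. At least 20 UMIs of the cell cycle genes Mki67 and Top2a were held by 10 cells of cluster 5. All 8 cells under 10 Dcn and Lum UMIs were among them, so most cells with Dcn and Lum were not. Of the rule genes, every cell of clusters 1, 3 and 4 had at least 10 UMIs of Dcn and Lum together.

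The rule genes were compared with the RNA outside cells. Dermatopontin (Dpt), a small matrix protein that binds decorin, had a UMI in 49.9% of cancer cells of the control library and 48.2% of the ENZ library. Dcn had a UMI in 8.66% and 8.12% of cancer cells, and Lum in 3.52% and 2.02%. In CPM (the summed UMIs of a gene relative to all UMIs of those cells) Dpt stood at 40.4 and 39.2 in cancer cells and at 39.2 and 33.1 in barcodes with at most 100 UMIs, which hold free RNA. Dcn stood at 4.26 and 4.12 CPM in cancer cells and at 17.0 and 20.1 CPM in free RNA, and Lum at 1.54 and 0.915 CPM against 5.74 and 2.48 CPM, so both were lower in cancer cells than in free RNA. The rule kept cells with 10 or more UMIs of these genes out of the cancer cells. Cancer cells here are the 8273 cells with under 10 UMIs of the 3 rule genes, at most 1 of Ptprc and at least 5 of Cacna2d1, Rbfox2, Kif21a and Rhox5 summed. At 10 to 12 rule UMIs, just inside the threshold, the 15 control and 21 ENZ cells had Rhox5 at 836 and 646 CPM and Col1a1 at 1415 and 1114 CPM. At 7 to 9 rule UMIs, just outside it, the 58 control and 70 ENZ cells had Rhox5 at 822 and 806 CPM and Col1a1 at 479 and 517 CPM. Dcn, which set these bins, stood at 65.3 and 87.1 CPM inside and 24.4 and 33.5 CPM outside.

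**Figure D1:**
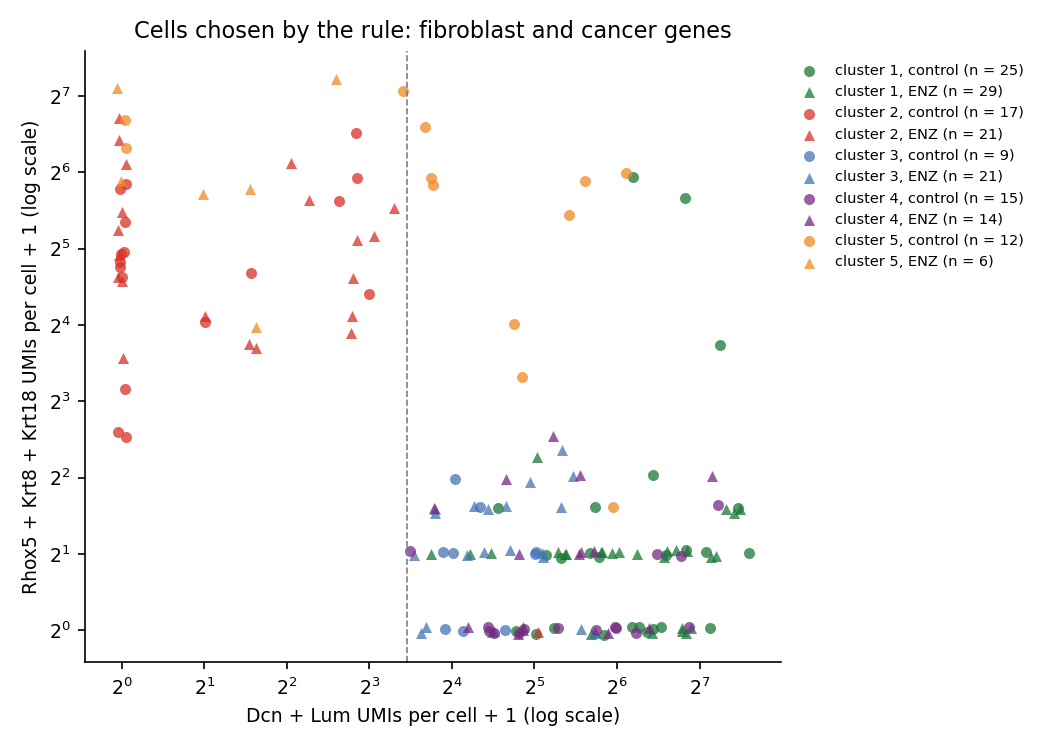
Each point is 1 of the 169 chosen cells, with its Dcn and Lum UMIs on the x axis and its Rhox5, Krt8 and Krt18 UMIs on the y axis (both plus 1, log scales), colored by cluster and shaped by library; the dashed line marks 10 Dcn and Lum UMIs. Clusters 1, 3 and 4 lie right of the line, all but 1 of 38 cluster 2 cells lie left of it, and 10 of 18 cluster 5 cells lie right of it, each with at least 2 Rhox5 UMIs. These 10 cells are all of the control library.

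For this reason values are given for all 169 cells and again for the 113 cells of clusters 1, 3 and 4 (49 control, 64 ENZ), which are called Dcn-high fibroblasts below and were selected after the values were seen. Among the rule genes for cancer cells, Cacna2d1 and Rbfox2 were not lower in the chosen cells: Cacna2d1 stood at 183 and 208 CPM in the 169 cells (control and ENZ) and at 129 and 160 CPM in cancer cells. Rhox5 stood at 57.5 and 34.3 CPM in Dcn-high fibroblasts against 1054 and 916 CPM in cancer cells. Krt18 in Dcn-high fibroblasts stood at 69.6 CPM (control) and 7.54 CPM (ENZ), and 60 of the control UMIs came from 2 cells of cluster 1. These 2 control cells held 24 and 11 Rhox5 UMIs beside 60 and 113 Dcn UMIs, and without them Krt18 stood at 10.1 CPM in the control library. A doublet score (for 2 cells under 1 barcode) marked 0 cells of cluster 5, 1 cell of cluster 1 and 2 cells of cluster 3, all 3 of the ENZ library. Cluster 5 had a median of 49001 UMIs per cell, against 16145, 19777 and 20869 in clusters 1, 3 and 4. The part that doublets play in the 10 cluster 5 cells with Dcn, Lum and Rhox5 and in the 2 control cells was not tested.

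The chosen cells were a small part of both tumors. They made up 0.919% of kept cells in the control library (exact binomial 95% interval 0.727 to 1.15) and 1.15% in the ENZ library (0.928 to 1.41). Of the cells with at most 1 Ptprc UMI they made up 1.5% (1.19 to 1.87) and 1.71% (1.38 to 2.1). Dcn-high fibroblasts made up 0.578% (0.428 to 0.763) and 0.810% (0.624 to 1.03) of kept cells. The intervals of the libraries overlapped in each of these shares, and they cover counting error only. The chosen cells had a median of 21009 UMIs in the control library (range 6212 to 75869) and 20183 in the ENZ library (range 6217 to 105814), close to the medians of cancer cells (21062 and 22215).

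The chosen cells held many genes at levels well above those of cancer cells. Of 3867 genes with at least 50 CPM in the chosen cells or the cancer cells of each library, 259 (6.7%) were at least 4-fold higher than in cancer cells in both libraries and 0 (0.0%) were at least 4-fold lower. In Dcn-high fibroblasts the counts were 433 of 4029 higher (10.7%) and 87 lower (2.16%), and they included all 259 genes. These shares are a background for the groups that follow, and since the rule chose the cells by genes of the same kind, nothing is read from a group's count beyond its size. The median log2 ratio to cancer cells over all tested genes was −0.10 (control) and −0.15 (ENZ), and −0.24 and −0.31 for Dcn-high fibroblasts.

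The fibrillar collagens stood far above their level in cancer cells, with all 6 measured genes at least 4-fold higher and a median log2 ratio of 4.96 (control) and 5.08 (ENZ). Col1a2 stood at 7510 CPM among control and 7800 CPM among ENZ cells, against 19.0 and 7.94 CPM in cancer cells, a ratio of 396 (95% counting interval 377 to 416) and 983 (919 to 1053). In Dcn-high fibroblasts every cell had Col1a2, from 847 to 21776 CPM with a median of 11639 in the control library and from 2098 to 32319 with a median of 11478 in the ENZ library, so the cells of the libraries overlapped widely. Col1a1, whose protein joins that of Col1a2 in type I collagen, stood at 6943 and 6954 CPM against 173 and 140 CPM. Col3a1, the chain of type III collagen, stood at 9082 and 8742 CPM against 375 and 378 CPM. Cancer cells thus held UMIs of Col1a1 and Col3a1 while Col1a2 was near absent from them: with every cell thinned to 3000 UMIs, Col1a2 had a UMI in 100% of Dcn-high fibroblasts of both libraries and in 2.1% and 2.5% of cancer cells, and Col3a1 in 66.0% and 66.3% of cancer cells. For Col1a2 the immune cells, which should lack it, gave 3.1% and 1.8%, at or near the share in cancer cells.

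Other matrix groups followed the collagens. Of 7 further collagens measured, 6 were at least 4-fold higher, as were 5 of 5 small proteoglycans, 9 of 10 elastic fibre genes and 9 of 11 matricellular genes. The median log2 ratio was 7.13 and 6.99 for the small proteoglycans, 8.10 and 8.66 for the elastic fibre genes and 3.81 and 3.46 for the matricellular genes. Biglycan (Bgn), a small proteoglycan that binds collagen, stood at 2022 and 1867 CPM against 9.96 and 5.61 CPM. Fbn1, which encodes the microfibril protein fibrillin-1, stood at 809 and 850 CPM against 4.28 and 3.63 CPM. Periostin (Postn), a matricellular protein of remodeled tissue, stood at 1513 and 1371 CPM against 3.54 and 2.24 CPM. Sparc and fibronectin (Fn1) were shared with the cancer cells to a greater extent: Sparc stood at 7772 and 7079 CPM against 726 and 644 CPM, and Fn1 at 2426 and 2222 CPM against 359 and 366 CPM. Basement membrane genes were less distinct, with 3 of 10 at least 4-fold higher and medians of 0.73 and 0.97. Col15a1, a collagen of that group, stood at 131 and 187 CPM against 3.61 and 2.33 CPM.

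Enzymes that finish or cut collagen split into genes near absent from cancer cells and genes shared with them. Of 12 crosslinking and processing genes 3 were at least 4-fold higher. Lysyl oxidase (Lox), which crosslinks collagen and elastin, stood at 405 and 406 CPM against 0.392 and 0.338 CPM, a ratio of 1031 (748 to 1461) and 1202 (869 to 1710). Of 9 metalloproteinases and inhibitors 4 were at least 4-fold higher. Mmp2, a gelatinase, stood at 299 and 262 CPM against 14.1 and 12.4 CPM, and Timp1, a metalloproteinase inhibitor, at 1266 and 839 CPM against 264 and 243 CPM.

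By the rule for naming genes, the 15 genes highest over cancer cells were Sfrp2, Lox, C1qtnf3, Fndc1, Cthrc1, Cxcl14, Ptx3, Pcsk5, Clec3b, Sfrp1, Mfap5, Thbs4, Cilp, Postn and Col1a2. Sfrp2 stood at 709 and 233 CPM against 0.553 and 0.187 CPM, and the pentraxin Ptx3, a soluble pattern recognition protein, at 119 and 130 CPM against 0.101 and 0.151 CPM. Cthrc1, a secreted protein of collagen-producing cells, stood at 427 and 338 CPM against 0.533 and 0.275 CPM. Mfap5, a microfibril protein, stood at 984 and 881 CPM against 1.98 and 0.649 CPM. Barcodes with at most 100 UMIs, which hold RNA outside cells, had Sfrp2 at 9.66 and 5.24 CPM and Mfap5 at 22.2 and 11 CPM. These levels were above those in cancer cells for both genes in both libraries. The part of such RNA in the counts of cancer cells was not tested.

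**Figure D2:**
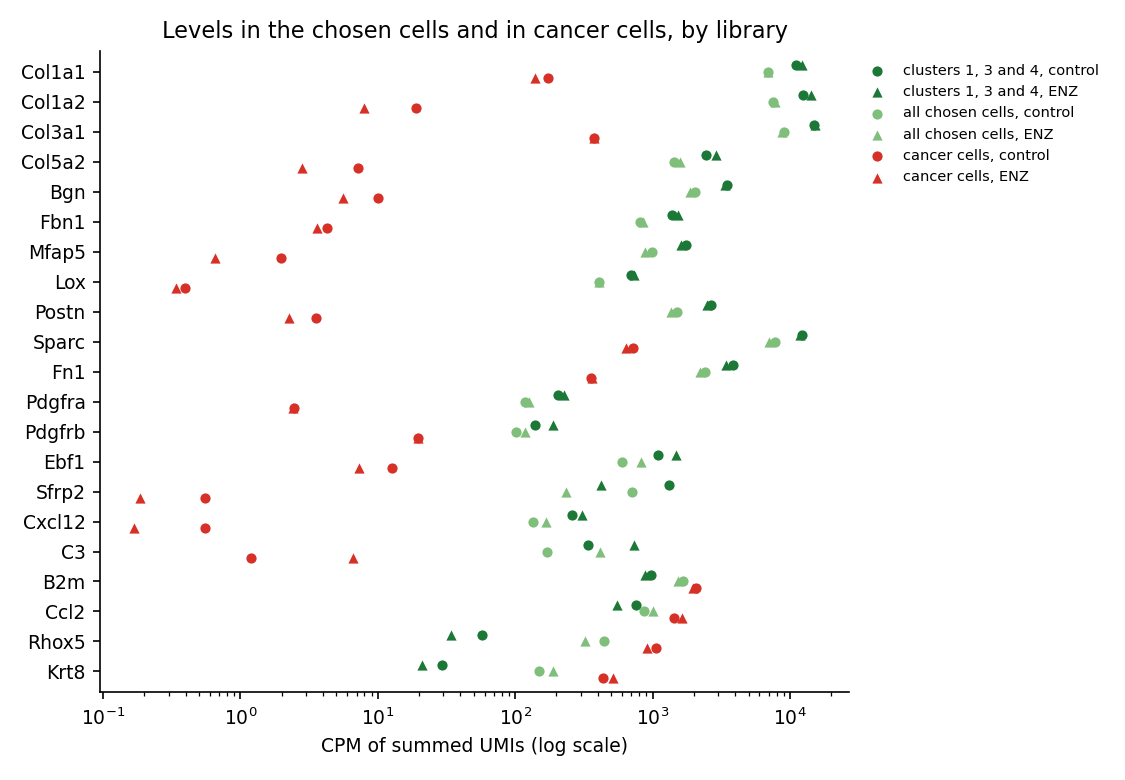
Level of 21 genes (y axis) as CPM of summed UMIs (x axis, log scale) in Dcn-high fibroblasts (clusters 1, 3 and 4), in all chosen cells and in cancer cells, circles for the control and triangles for the ENZ library. Matrix genes such as Col1a2 and Lox stand 2 or more powers of 10 above cancer cells, and Rhox5 and Krt8 stand highest in cancer cells.

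Surface genes stood higher as well. Of 6 fibroblast surface genes 5 were at least 4-fold higher, and 8 of 8 in Dcn-high fibroblasts. Pdgfra, a receptor for platelet-derived growth factor, stood at 118 and 126 CPM against 2.47 and 2.42 CPM, and its relative Pdgfrb, also carried by vessel wall cells, at 101 and 118 CPM against 19.7 and 19.6 CPM. Of 7 fibroblast transcription factors 3 were at least 4-fold higher, with a median log2 ratio of 0.49 and 0.53. Ebf1, a transcription factor of mesenchymal and B cells, stood at 595 and 824 CPM against 12.8 and 7.30 CPM, while Tcf4, which binds E-box sequences, stood at 466 and 520 CPM at ratios of 1.1 and 1.23. Of 7 complement genes all 7 were at least 4-fold higher (median log2 ratio 7.13 and 5.97), among them Serping1, the C1 inhibitor, at 642 and 856 CPM against 3.99 and 3 CPM. Of 11 chemokines and cytokines 5 were at least 4-fold higher. Of 6 growth factor genes 5 were at least 4-fold higher, with a median log2 ratio of 8.19 and 8.43. Cxcl12, which retains leukocytes that carry CXCR4, stood at 135 and 169 CPM against 0.553 and 0.169 CPM. Ccl2, a monocyte attractant, was instead lower in the chosen cells, at 873 and 1003 CPM against 1428 and 1648 CPM.

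Genes of other cell types were mostly low in the chosen cells, apart from the epithelial genes already described. Mural (vessel wall) genes and Schwann cell and adipocyte genes stood above their level in cancer cells. Summed over 10 macrophage genes the level was 109 CPM (control) and 49.3 CPM (ENZ), against 5535 and 3791 CPM in immune cells, and the most abundant was Lyz2 at 72.3 and 19.3 CPM. The rule capped Ptprc, C1qa, C1qb and C1qc, so a low macrophage level was partly fixed by it; the 7 macrophage genes that it did not use summed to 89.9 and 31.8 CPM. The 6 neutrophil genes summed to 181 and 43.3 CPM, led by S100a9 at 88.9 and 10.6 CPM. The 8 endothelial genes summed to 11.6 and 74.6 CPM, led by Cdh5 at 4.04 and 22.1 CPM. In cluster 3 they summed to 122 CPM, and to 9.49 CPM without 1 ENZ cell that held 85 UMIs of Pecam1, Cdh5, Rgs5 and Notch3 (the next cell held 6); without it the ENZ sum over all chosen cells was 46.0 CPM. The 10 mural genes summed to 212 and 258 CPM, of which Ndufa4l2 gave 143 and 144 CPM, against 62.4 and 54.7 CPM in cancer cells. The 1 mural gene tested against cancer cells was at least 4-fold higher. The 6 mesothelial genes summed to 9.60 and 8.75 CPM with 2 of them at 0, and the 8 T and NK cell genes to 12.6 and 6.45 CPM with 2 at 0. The 7 Schwann cell and adipocyte genes summed to 44.0 and 71.4 CPM, against 4.07 and 3.25 CPM in cancer cells. In Dcn-high fibroblasts they summed to 61.5 and 129 CPM, and the mural genes to 298 and 435 CPM. There the 1 gene tested of the former list and 1 of 2 mural genes were at least 2-fold higher with ENZ, against 1.87% of all genes. The 1 mural gene tested over all chosen cells had a log2 ENZ ratio of 0.012. In cluster 3 the mural genes summed to 483 CPM, and to 277 CPM without the ENZ cell with 85 vessel UMIs. No mural sum of the Dcn-high fibroblasts without that cell is given here. The sums of macrophage, neutrophil, endothelial, mural, and Schwann cell and adipocyte genes therefore differed between the libraries, as did the genes with the ENZ ratios below. The endothelial and mural sums did so with that 1 ENZ cell of cluster 3 included. The part of these cell type genes in the ENZ ratios was not tested.

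The Dcn-high fibroblasts were not uniform. Clusters were formed from the same genes that describe them, so their leading genes are given as descriptions. Cluster 1 was universal adventitial-like: all 10 markers of that list, which follows fibroblasts found around vessels of many organs, stood at 2-fold or more over the median cluster, as did 6 of 10 inflammatory-like markers. In cluster 1 Clec3b, a plasminogen-binding lectin, stood at 675 CPM against at most 17.8 CPM in clusters 2 to 5. Pi16, a peptidase inhibitor of adventitial fibroblasts, stood at 432 CPM in cluster 1 and 45.4 CPM in cluster 4. Tnfaip6, which links hyaluronan chains, was high in cluster 1 at 2309 CPM and also present in clusters 3 and 4 at 1214 and 1089 CPM. Opcml, another leading gene of cluster 1, drew 54.1% of its UMIs there from 1 cell.

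Cluster 3 was left unnamed. Its 10 leading genes were Olfr810, Sema7a, Adra2a, Sparcl1, Reg1, Cd53, Spp1, Brinp3, Bmpr1b and Ednra, among them the leukocyte gene Cd53 and 0 markers of the cell type lists. Of the markers, 7 of 11 myofibroblast-like genes stood at 2-fold or more over the median cluster, with or without the 1 ENZ cell that held 85 vessel UMIs. Of 10 mural genes 8 did so, and 4 without that cell, and of 8 endothelial genes 6 did so, and 0 without it. Osteopontin (Spp1), a secreted phosphoprotein, stood at 10946 CPM in cluster 3 and at 536 to 1321 CPM in the others. Spp1 in cluster 3 summed to 15753 CPM (control) and 8945 CPM (ENZ), and single cells held 1 to 660 UMIs (median 273) and 1 to 564 UMIs (median 124). In 1 control and 3 ENZ cells the count was at most 3 UMIs, and the other cells held at least 38 and 23; free RNA held Spp1 at 612 and 575 CPM. Tenascin C (Tnc) stood at 2858 CPM in cluster 3, 1756 CPM in cluster 4 and 416 CPM in cluster 1. Col15a1 stood at 611 CPM in cluster 3 and 186 CPM in cluster 4. The 9 control and 21 ENZ cells of cluster 3 make it the least even cluster among clusters 1, 3 and 4.

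Cluster 4 was led by C1qtnf3 and Eln, and 10 of 11 myofibroblast-like markers stood at 2-fold or more over the median cluster, but none was among its top 10 genes, so it was left unnamed. In cluster 4, 6 of 10 universal adventitial markers and 5 of 6 neutrophil genes also stood at 2-fold or more over the median cluster. C1qtnf3, a secreted protein of the C1q and TNF family, stood at 1230 CPM in cluster 4, against 196 CPM in cluster 3 and 32.0 CPM in cluster 1. Elastin (Eln) stood at 1236 CPM against 54.6 and 191 CPM in clusters 3 and 1. Periostin stood at 5046 CPM in cluster 4, and Lrrc15, a surface protein of myofibroblasts in tumors, at 342 CPM against 123 and 36.0 CPM in clusters 3 and 1. Its top 10 also held the neutrophil genes S100a8 and S100a9, of which 83 and 133 UMIs came from control cells and 3 and 7 from ENZ cells. A single cell gave 50% of the UMIs of each gene in this cluster.

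**Figure D3:**
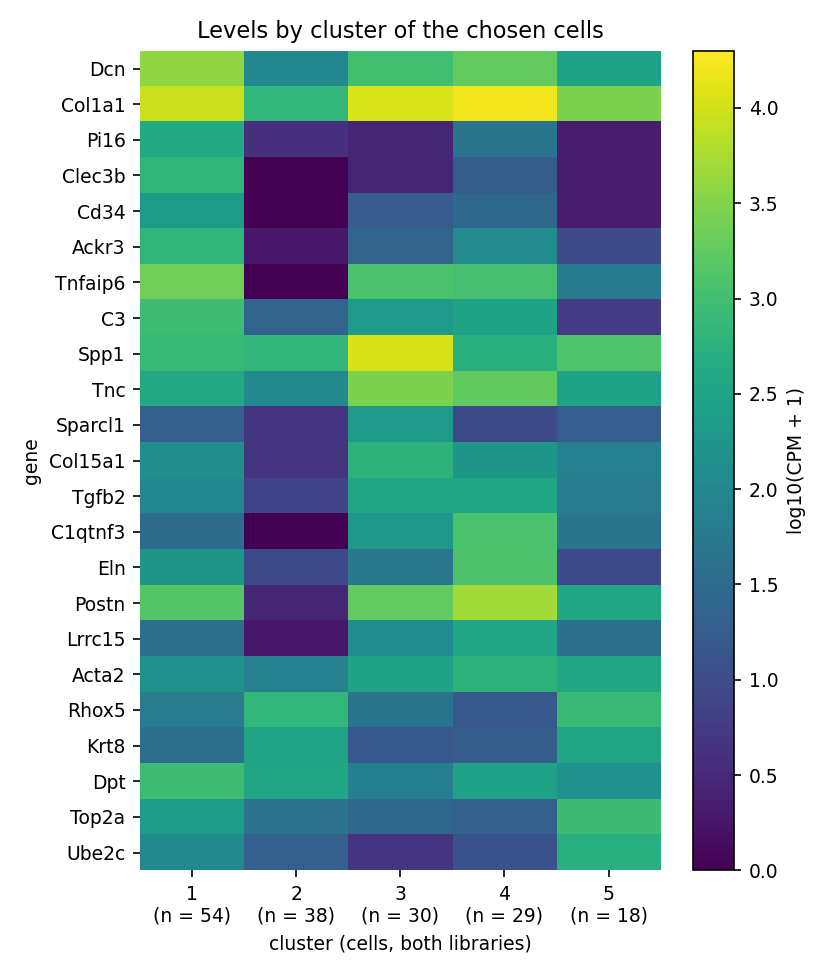
Color gives log10(CPM + 1) of 23 genes (y axis) in the 5 clusters of the chosen cells (x axis, cells of both libraries summed). Pi16 and Clec3b stand out in cluster 1, Spp1 in cluster 3, C1qtnf3 and Eln in cluster 4, while Rhox5 and Krt8 are high in clusters 2 and 5 and Top2a in cluster 5.

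The comparison of ENZ with control asks what enzalutamide treatment went with in the chosen cells. Counts and ratios are over all 169 cells unless Dcn-high fibroblasts or a cluster are named, so they include the 56 cells of clusters 2 and 5. Cluster 5 was unlike between the libraries (12 control and 6 ENZ cells). Its 10 cells with at least 10 UMIs of Dcn and Lum together were all control cells. Col1a2 in cluster 5 stood at 4536 CPM (control) and 2.90 CPM (ENZ), and Col1a1 at 4397 and 528 CPM. The part of this difference in the ratios over all 169 cells was not tested. Most genes were close to level: of 3894 genes that reached 50 CPM in 1 or both libraries, 34 (0.873%) were at least 2-fold higher and 28 (0.719%) at least 2-fold lower in the ENZ cells, with a median log2 ratio of 0.0028. Among Dcn-high fibroblasts 70 of 3734 genes were higher (1.87%) and 86 lower (2.3%), including 30 of the 34 and 23 of the 28. Both counts come from 1 library a condition, so mouse, sort and treatment cannot be told apart, and in such data fewer cells of a kind and less RNA per cell are separated only as far as the clusters go.

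Sfrp2 and its close relative Sfrp1, both secreted Wnt modulators named for their low ratios, were lower in the ENZ cells. Sfrp2 had a summed level of 709 CPM (control) and 233 CPM (ENZ), a ratio of 0.328 (95% counting interval 0.296 to 0.364). Single Dcn-high fibroblasts ranged from 0 to 10574 CPM with a median of 878 in the control library and from 0 to 2136 with a median of 224 in the ENZ library. The cells thus overlapped, while the sum was lower in each cluster: 1725 and 576 CPM in cluster 1, 623 and 284 CPM in cluster 3, and 1012 and 361 CPM in cluster 4. Sfrp1 stood at 349 and 121 CPM, a ratio of 0.347 (0.300 to 0.401), and at 523 and 213 CPM, 875 and 147 CPM, and 698 and 328 CPM in clusters 1, 3 and 4. Of 8 growth factor genes tested these 2 were at least 2-fold lower, against 0.719% of all genes, and 7 were below 1 (median log2 ratio −0.56); in Dcn-high fibroblasts 3 of 10 were at least 2-fold lower, against 2.3%. Those below 1 included Igf1, an insulin-like growth factor, at 161 and 115 CPM (ratio 0.717, 0.605 to 0.849). Igf1 differed between clusters, at 300 and 410 CPM in cluster 1, 436 and 128 CPM in cluster 4, and from 3 and 8 UMIs alone in cluster 3.

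The chemokine Cxcl14, which draws monocytes and dendritic cells, was also lower, at 766 and 248 CPM, a ratio of 0.324 (0.293 to 0.358). It stood at 1836 and 242 CPM in cluster 1, 1696 and 941 CPM in cluster 3, and 759 and 144 CPM in cluster 4. Cxcl14 was uneven between cells, with 57.1% of control and 51.6% of ENZ Dcn-high fibroblasts holding a UMI before thinning and single cells reaching 14078 and 6685 CPM. Of 12 chemokine and cytokine genes tested in all chosen cells, 1 was at least 2-fold lower, 0 were at least 2-fold higher and 10 were above 1, and of 14 tested in Dcn-high fibroblasts 1 was lower and 3 were higher (Cxcl5, Cxcl9 and Cxcl10; 1.87% of all genes were higher there), with a median log2 ratio of 0.43. Cxcl5, a neutrophil attractant, stood at 18.1 and 90.5 CPM in Dcn-high fibroblasts, and Cxcl10, an interferon-induced attractant of T cells, at 10.1 and 106 CPM, against 126 and 85.8 CPM in cancer cells. Cxcl12 stood at a ratio of 1.25 (1.06 to 1.46) and Il33, an alarmin, at 1.40 (1.21 to 1.63). Cxcl9, a relative of Cxcl10, stood at 1.01 and 59.5 CPM in Dcn-high fibroblasts, but 57 of its ENZ UMIs came from 1 cell.

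Of 5 contractile genes tested (9 listed), 2 were at least 2-fold lower, Acta2 and Tagln, and the others were below 1 without passing the mark, with a median log2 ratio of −0.62; over all genes 0.719% were at least 2-fold lower. Acta2, smooth muscle actin, stood at 381 and 155 CPM, a ratio of 0.407 (0.357 to 0.464), and Tagln, an actin-binding protein of smooth muscle, at 300 and 142 CPM, a ratio of 0.474. The clusters differed: Acta2 stood at 277 and 28.7 CPM in cluster 1 and 884 and 256 CPM in cluster 4, but at 282 and 309 CPM in cluster 3. Tagln stood at 172 and 10.2 CPM, 858 and 387 CPM, and 414 and 404 CPM in the same order. After thinning, 38.8% of control and 18.8% of ENZ Dcn-high fibroblasts had an Acta2 UMI. Of 9 myofibroblast-like genes 0 passed the 2-fold mark and 8 were below 1, with a median log2 ratio of −0.13, and 0.05 in Dcn-high fibroblasts. Postn stood at a ratio of 0.906 (0.861 to 0.954) and Tnc at 0.977 (0.914 to 1.04).

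Saa3, C3 and Lcn2, which take part in innate defense and were named for their high ratios, were higher in the ENZ cells and uneven between cells, while S100a8 and S100a9, also of innate defense, were lower. Saa3 stood at 30.8 and 704 CPM, a ratio of 22.9 (17.7 to 30.0), from 4 of 78 control cells and 16 of 91 ENZ cells with a UMI. A single cell gave 82.0% of the control and 41.9% of the ENZ UMIs of Saa3, and with the top cell of each library left out the ratio was 73.5. Cluster 1 held most of it, at 107 and 2970 CPM, against 19.2 and 259 CPM in cluster 4 and 0 and 2.50 CPM in cluster 3. Saa3 was higher in other classes too: immune cells held it at 6.46 and 160 CPM, barcodes with at most 100 UMIs at 7.83 and 95.4 CPM, and cancer cells had a ratio of 17.2. Of 7 complement genes 1 was at least 2-fold higher, C3, against 0.873% of all genes. Of 3 interferon-induced genes 0 were, with all 3 below 1 (median log2 ratio −0.82). In Dcn-high fibroblasts 1 of 5 interferon-induced genes was at least 2-fold higher, against 1.87% of all genes there, with a median log2 ratio of −0.29. This was Ifit1, at 14.1 and 50.3 CPM. Isg15, a ubiquitin-like protein of that list, stood at 115 and 199 CPM in cluster 1 but at 264 and 37.4 CPM in cluster 3 and 99.3 and 32.8 CPM in cluster 4. C3 stood at 170 and 416 CPM, a ratio of 2.45 (2.16 to 2.78), and was higher in each cluster, at 509 and 1332 CPM, 5.99 and 282 CPM, and 231 and 380 CPM in clusters 1, 3 and 4. The control value of cluster 3 rested on 1 UMI in 1 cell (95% interval 0.152 to 33.4 CPM), and the ENZ value on 113 UMIs in 11 cells. In cancer cells C3 was far lower in level, at 1.19 and 6.63 CPM. Lcn2, an iron-sequestering defense protein, stood at 12.6 and 58.0 CPM, of which 115 of the ENZ UMIs lay in 8 cells of cluster 1. A single ENZ cell held 65 Lcn2 UMIs. With the top cell of each library left out, Lcn2 stood at 6.12 and 28.2 CPM, a ratio of 4.62 (2.46 to 9.42).

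**Figure D4:**
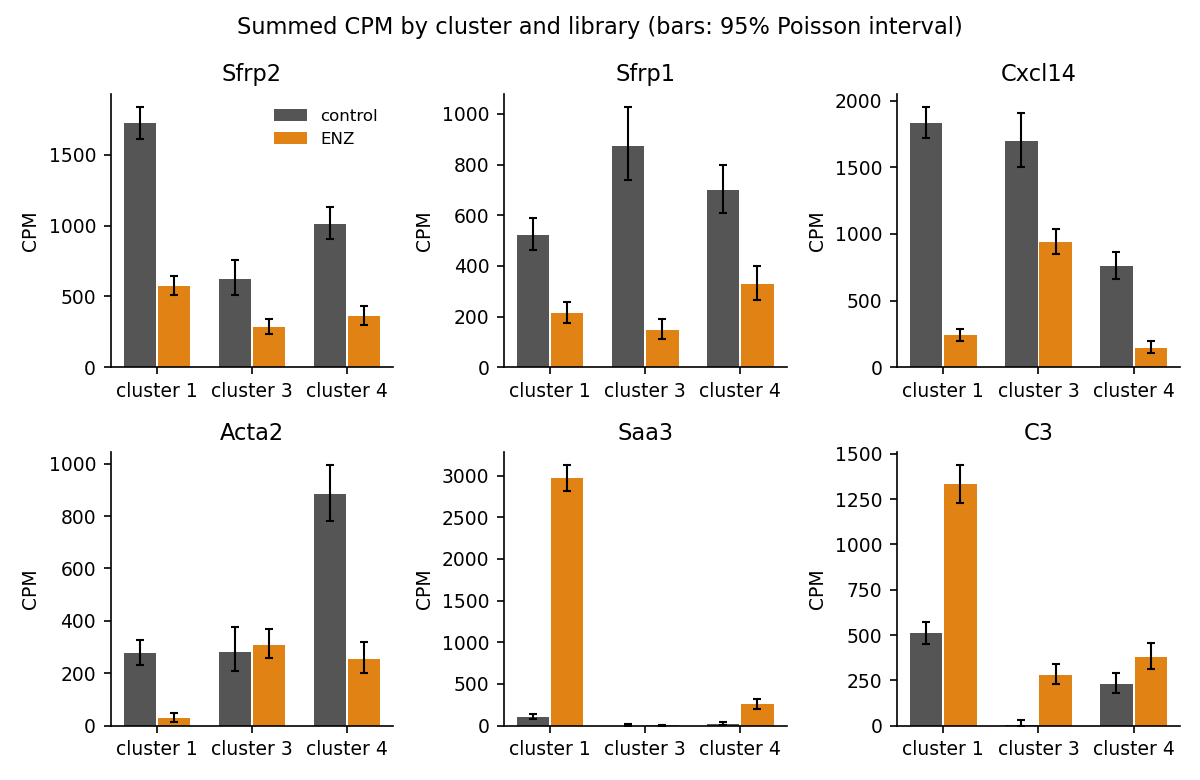
Bars give CPM of summed UMIs (y axis, from 0) of 6 genes in clusters 1, 3 and 4 (x axis), gray for control and orange for ENZ, with 95% Poisson intervals for counting error only. Sfrp2, Sfrp1 and Cxcl14 are lower and C3 higher with ENZ in all 3 clusters (C3 from 1 control UMI in cluster 3), Acta2 is lower in clusters 1 and 4, and Saa3 is high in cluster 1 of the ENZ library.

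Zbtb16, a zinc finger transcription factor, stood at 18.2 and 88.0 CPM, a ratio of 4.84 (3.37 to 7.11), against 1.30 in cancer cells, with a UMI in 12 of 78 control and 33 of 91 ENZ cells. In cluster 1 it stood at 68.3 and 359 CPM, while clusters 3 and 4 of the control library had 0 UMIs. Fkbp5, a chaperone gene that steroid hormones induce, stood at 54.5 and 102 CPM in Dcn-high fibroblasts and at 162 and 200 CPM in cancer cells. Ablim1, an actin-binding protein, stood at 22.7 and 71.9 CPM and Igfbp5, which binds insulin-like growth factors, at 33.4 and 100 CPM, from 10 control and 12 ENZ cells with a UMI. The Igfbp5 ratio was 3.01, and 7.25 (4.43 to 12.6) with the top cell of each library left out. The metallothionein genes Mt1 and Mt2, which bind zinc and copper, were higher without passing the 2-fold mark, at ratios of 1.40 (1.33 to 1.46) and 1.83 (1.70 to 1.97), against 0.775 and 1.01 in cancer cells. Pi16 stood at 72.3 and 148 CPM, a ratio of 2.05 (1.68 to 2.52), with 246 and 627 CPM in cluster 1. It was the 1 gene of 8 universal adventitial genes tested that was at least 2-fold higher, against 0.873% of all genes, and 6 were above 1. In Dcn-high fibroblasts 0 of the 10 tested, Pi16 included, were at least 2-fold higher. Flt1, a VEGF receptor of vessels, stood at 26.8 and 83.4 CPM, and in cluster 3 at 77.9 and 277 CPM from 2 and 8 cells. A single ENZ cell held 44 of the 111 ENZ Flt1 UMIs of cluster 3. With the top cell of each library left out, Flt1 stood at 21.6 and 64.3 CPM over the chosen cells.

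Few structural matrix genes passed the 2-fold mark, as few genes did over all (0.873% higher and 0.719% lower). Of the 6 fibrillar collagens 0 passed it and 5 were above 1, with a median log2 ratio of 0.07. Col1a1 stood at 6943 and 6954 CPM and Col3a1 at 9082 and 8742 CPM. Of 6 small proteoglycans 1 passed it, Prelp, which anchors basement membranes, at 123 and 54.8 CPM (ratio 0.446, 0.355 to 0.558). Below 1 were 9 of 10 elastic fibre genes (median log2 ratio −0.16), 9 of 11 matricellular genes (−0.13) and 8 of 9 metalloproteinases and inhibitors (−0.19), with 0 past the mark in each list. All 10 basement membrane genes tested were above 1, with a median log2 ratio of 0.42 and 0 past the 2-fold mark. Col4a1, a chain of type IV collagen, stood at 252 and 433 CPM, and in Dcn-high fibroblasts at 242 and 523 CPM, a ratio of 2.16 (1.86 to 2.52). Within clusters Col4a1 stood at 314 and 420 CPM in cluster 1, 324 and 1003 CPM in cluster 3 and 80.1 and 55.7 CPM in cluster 4, so the gap lay mostly in cluster 3. There 6 of 9 control and 17 of 21 ENZ cells held a Col4a1 UMI. No Col4a1 value without the 1 ENZ cell of cluster 3 that held 85 vessel UMIs is given here. The cancer cells had a Col4a1 ratio of 1.29. Timp1 was lower at 1266 and 839 CPM, a ratio of 0.662 (0.623 to 0.704).

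**Figure D5:**
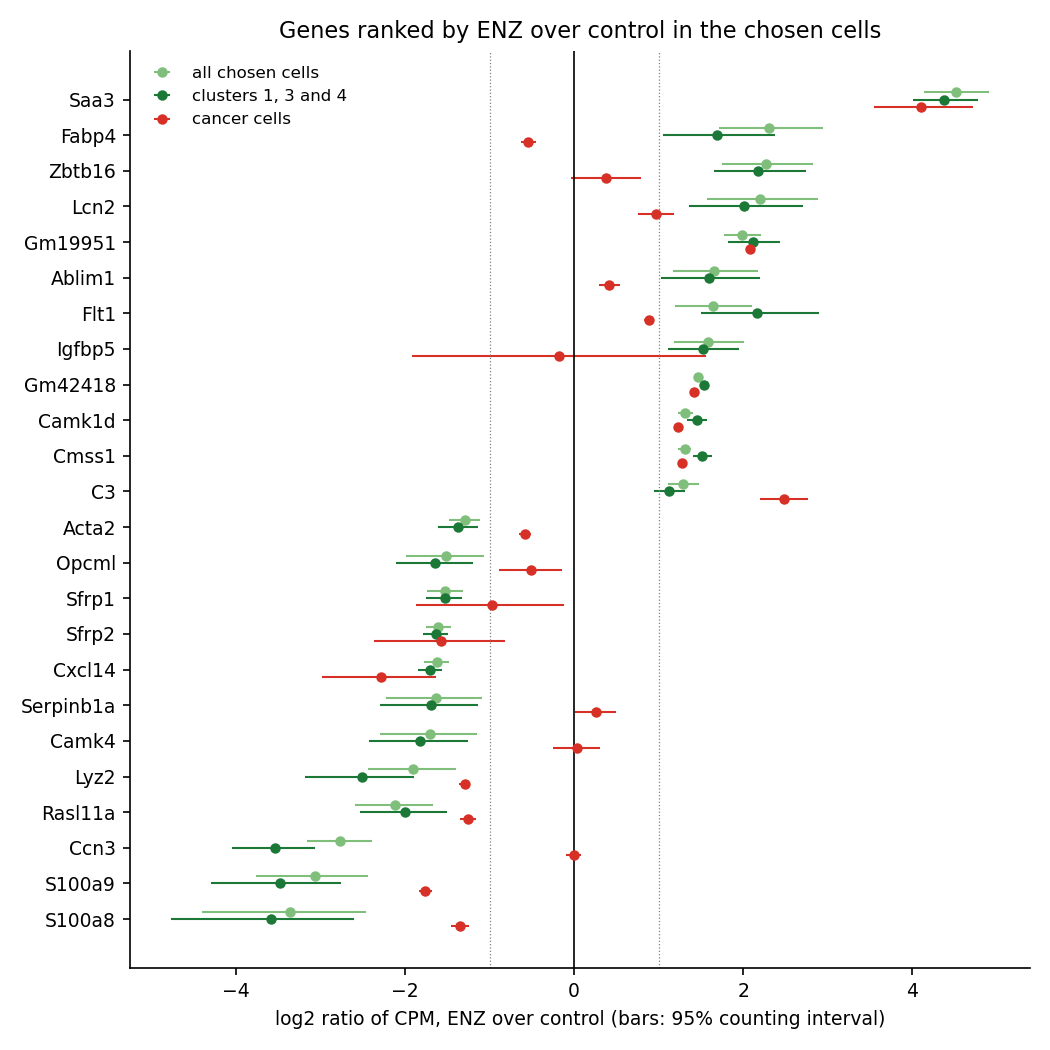
Log2 ratio of CPM, ENZ over control (x axis), of the 12 highest and 12 lowest genes by the rule (y axis) in all chosen cells, in clusters 1, 3 and 4 and in cancer cells, with 95% counting intervals; dotted lines mark 2-fold. Fabp4 and Serpinb1a have the opposite sign in cancer cells, and Gm42418, Cmss1 and Camk1d have nearly the same ratio in all 3.

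Several of the other leading genes shifted alike in other cells or rested on few cells. Of 9 rRNA-like genes, whose reads often come from ribosomal RNA fragments, 7 were at least 2-fold higher, against 0.873% of all genes. Among them was Gm42418 at 12740 and 35274 CPM (ratio 2.77, and 2.66 in cancer cells). Camk1d, a calcium-dependent kinase gene, belongs to both this list and the genes under study, and stood at 711 and 1769 CPM in the chosen cells (ratio 2.49) and at a ratio of 2.34 in cancer cells. S100a8 and S100a9, which neutrophils carry, stood at 52.0 and 5.07 CPM and at 88.9 and 10.6 CPM, and in cancer cells at ratios of 0.393 and 0.295. With the top cell of each library left out, their ratios in the chosen cells went from 0.0974 to 0.152 (0.0693 to 0.299) and from 0.119 to 0.180 (0.107 to 0.290). Lyz2 had a ratio of 0.268, with 61.5% of its control UMIs from 1 cell, and 0.670 (0.433 to 1.03) with the top cells left out. Opcml had a ratio of 0.349, with 71.1% of its control UMIs from 1 cell, and 0.933 (0.599 to 1.46) with them left out. Ccn3, a matricellular protein, stood at 207 and 30.4 CPM, of which 314 of the control UMIs lay in 8 cells of cluster 4. Camk4, a calcium-dependent kinase gene also of T cells, stood at 54.1 and 16.6 CPM, chiefly in cluster 4 at 275 and 78.7 CPM. Rasl11a, a Ras-like GTPase gene, stood at 102 and 23.5 CPM, and at 189 and 24.6 CPM in cluster 1.

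Of 12 immediate early genes 0 passed the 2-fold mark and 11 were below 1, and of 8 heat shock genes 0 passed it and 7 were below 1. Of 10 hypoxia and glycolysis genes tested 2 were at least 2-fold lower, against 0.719% of all genes, and 3 were above 1, with a median log2 ratio of −0.11. The 2 were Adm, a vasodilator peptide, at 112 and 47.0 CPM, and Hilpda, a lipid droplet protein, at 100 and 42.8 CPM. In cluster 4 Adm stood at 51.2 and 78.7 CPM and Ldha, lactate dehydrogenase, at 407 and 652 CPM, higher with ENZ, while in cluster 1 both were lower, at 332 and 152 CPM and at 455 and 289 CPM. Hilpda had a ratio of 0.490 in cancer cells. Of 7 cell cycle genes tested in Dcn-high fibroblasts 5 were at least 2-fold lower (median log2 ratio −1.14), against 2.3% of all genes there, while 0 of 8 passed the mark over all chosen cells. The list of 12 summed to 759 and 330 CPM in Dcn-high fibroblasts and to 899 and 1035 CPM over all chosen cells. Without the 2 control cells of cluster 1 that held Rhox5 and keratins, the control sum in Dcn-high fibroblasts was 486 CPM and 2 of the 4 genes still tested were at least 2-fold lower. Cluster 1 held 6 cells with at least 20 UMIs of Mki67 and Top2a. Of the other genes under study, Cd44, the hyaluronan receptor, stood at 410 and 471 CPM (ratio 1.15), Tgfb1 at 125 and 122 CPM, Nr4a1 at 92.0 and 99.0 CPM, Bcl2 at 61.6 and 47.0 CPM, Creb1 at 49.0 and 47.0 CPM and Pink1 at 29.3 and 25.8 CPM. Each of these 6 had a ratio between 0.762 and 1.15. Sox2, a stem cell factor, stood at 3.54 and 5.99 CPM with 0 UMIs in Dcn-high fibroblasts, and the cytokine genes Il10 and Ifng stood at 3.03 and 3.22 CPM and at 0.505 and 0.461 CPM, below the levels outside cells (barcodes with at most 100 UMIs). Prom1, a stem cell surface gene, had 0 UMIs in the chosen cells of either library.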

How the data were processed

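Single cells of 1 control and 1 ENZ tumor were profiled with droplet libraries (single cell 3′ v2, per the labels). The matrices listed 2438568 (control) and 2239744 (ENZ) barcodes, more than a v2 barcode list is believed to hold, so the chemistry is uncertain. The deposited counts are UMI counts per gene and barcode, unfiltered, that the authors made with Cell Ranger. The submitters' processing notes name version 2.1.1 and mm10, and the file headers name 7.2.0; the annotation and whether intronic reads were counted are not given in the sources used here. No column lacked a sample (0). Depth was 170830346 and 162030149 UMIs.

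UMIs were summed per library and class (chosen cells, clusters, cancer cells, and immune cells with at least 5 Ptprc UMIs) and divided by the class total to give CPM. Exact Poisson, binomial and conditional binomial intervals (95%) cover counting error only, and no test across conditions was possible with 1 library each. A gene counted as higher than in cancer cells at 4-fold in both libraries, and as different with ENZ at 2-fold, among genes with at least 50 CPM. Named genes were the 15 highest over cancer cells and the 12 highest and 12 lowest ENZ ratios, each by the interval bound nearer to 1, up to 4 leading genes of each list, list genes past the fold and 12 genes of the study. Cells were clustered with scanpy 1.11.5 and leidenalg 0.10.2 (1500 variable genes, 15 components, 15 neighbours, resolution 0.5, counts scaled to 10000) on the 169 cells. Doublets were scored with Scrublet and kept. Its automatic threshold marked 0 control and 270 ENZ cells, so the ENZ threshold of 0.236 was used in both (237 and 270 marked). Shares of cells with a UMI were also computed after thinning each cell to 3000 UMIs, with at most 1000 cells of each other class. Free RNA was read from barcodes with at most 100 UMIs. Scripts ran in Python 3.11.15 with pandas 2.3.3, numpy 2.4.6 and scipy 1.17.1 and were tested on simulated data. The members, markers and gene lists were chosen with earlier results of these data known, and support nothing on their own. Alternatives covered the rule, filters, scaling, free RNA, thinning and doublets. Results for some of the named genes are not reported here.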

Additional observations from a re-analysis of the deposited data

Results flagged for a closer look

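Fabp4, a fatty acid carrier of fat cells and vessels, had a log2 ENZ to control ratio of 2.31 in the chosen cells and −0.54 in cancer cells, and was singled out because the signs are opposite. It stood at 14.1 and 70.0 CPM in the chosen cells, and in cluster 3 at 5.99 and 162 CPM, with 65 ENZ UMIs in 3 cells. A pair of ENZ cells, in clusters 3 and 2, held 63 and 48 of the 152 ENZ UMIs, and without these 2 cells the ENZ level was 19.5 CPM and the log2 ratio 0.46. The difference between the classes was not tested.

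Serpinb1a, an inhibitor of neutrophil proteases, was singled out in the same way, with a log2 ratio of −1.64 in the chosen cells and 0.25 in cancer cells. It stood at 53.1 and 17.0 CPM in the chosen cells, and at 103 and 51.2 CPM in cluster 1 and 125 and 26.2 CPM in cluster 4. This difference was not tested either.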

How the results depend on the processing

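With a rule of at least 5 UMIs the chosen cells made up 2.96% and 3.91% of kept cells (control and ENZ), 74 genes stood at least 4-fold over cancer cells, and 10 were higher and 11 lower with ENZ. With at least 20 UMIs the shares were 0.589% and 0.708%, with 94 higher and 89 lower. With no UMI of Ptprc or C1q allowed they were 0.542% and 0.670%, with 85 and 51. Leaving out members with 5 or more cancer gene UMIs left 12 and 8 cells (0.141% and 0.101%), with 533 and 645. With Dcn and Lum alone they were 0.696% and 0.822%, with 111 and 118. In clusters 1, 3 and 4 the shares were 0.578% and 0.810%, with 433 genes over cancer cells and 70 and 86 with ENZ. Thinning gave 229 and 232. Leaving out the marked doublets, 3 ENZ cells among the chosen cells, gave 25 higher and 30 lower with ENZ, against 34 and 28 in the main setting. A minimum of 20 CPM gave 430 genes over cancer cells and 88 and 76 with ENZ, and a minimum of 100 CPM gave 170, 17 and 12. At a clustering resolution of 1 in place of 0.5, the cells of cluster 1 fell in groups with 25, 21 and 8 of them. The 8 shared their group with 8 cells of cluster 5, so the border of the Dcn-high fibroblasts depended on the resolution.

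Some log2 ENZ ratios that were at least 2-fold changed sign. Krt19 went to −1.64 with at least 20 UMIs, −0.64 after thinning, −1.94 with Dcn and Lum alone and −1.46 in clusters 1, 3 and 4. Without the members holding cancer gene UMIs, Camk4 was 0.059, Opcml 1.01 and Cdk8 −0.11. In cluster 1 alone Fabp4 was −0.054 and Flt1 −0.74. In cluster 3 alone S100a8 was 0.32, Lyz2 0.47 and Acta2 0.14. In cluster 4 alone Lcn2 was −0.97 and Rasl11a 0.41. The cause of these changes and of those in the counts was not tested. The alternatives with Dcn and Lum alone, by cluster, without the top cell and without single marked cells or genes of the rule were chosen after seeing the data. Over all named genes and settings (single clusters and top cells for up to 24 genes), 1678 ENZ ratios moved by less than their counting interval, 667 moved by more and 14 that were at least 2-fold reversed; a further 219 ratios under 2-fold, of 84 genes (Ccl2 among them, at −0.46 in clusters 1, 3 and 4), changed sign and are counted among the first 2 numbers. Of ratios to cancer cells 2230 moved by less, 1785 by more and 0 reversed. No paired analysis was possible because there was 1 library for each condition. Genes under 50 CPM in both libraries did not enter the counts of genes past a fold.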
